A study of Mus musculus with 9 samples.

Results

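Immediate early genes are transcribed within minutes of a stimulus, without the need for new protein, and most of their mRNAs are short-lived. The 10 genes described here were taken by their names in the deposited gene table: Fos, Fosb, Jun, Junb, Jund, Egr1, Atf3, Ier2, Zfp36 and Csrnp1. All 10 were found among its 54532 genes. Of these, 9 passed the filter on low values that left 13477 genes to test, a mean of at least 0.5 FPKM over all libraries; Fosb, at a mean of 0.236 FPKM, did not. FPKM are fragments per kilobase of gene length, scaled by a factor per library that was near its size.

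The series profiled right ventricular myocardium of wild-type C57BL/6 mice by RNA sequencing, with 3 libraries in each of 3 groups. The CsA group had the fistula operation, a shunt that makes the ventricles carry more blood, and an injection of cyclosporin A, an inhibitor of the phosphatase calcineurin. The VO group (volume overload) had the fistula operation alone, and the Sham group a control operation. All mice carry the label postnatal day 7, the age at which the protocol places the operation. The labels give no time of harvest, no dose and no vehicle injection. Nor do they tie libraries to separate mice, and the p-values therefore measure the spread between libraries alone, which may be technical. Throughout, n counts libraries, and a mean and SD given for the hearts of a group are over its 3 libraries.

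Fos and Jun proteins carry a leucine zipper and pair with each other as the transcription factor AP-1. Atf3 belongs to the same wider family and often acts as a repressor, while Egr1 is a zinc finger activator. In the heart, stretch and neurohormones induce Fos, Jun and Egr1 through MAP kinases, serum response factor and CREB. Zfp36 (tristetraprolin) is different: it is an RNA-binding protein that speeds the decay of mRNAs with AU-rich elements. Ier2 encodes a nuclear protein induced by growth factors, and Csrnp1 a nuclear protein first described as induced by axin.

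Libraries of the same group were not alike. Depth was 12046288 to 15986747 fragments assigned to genes. Mitochondrially encoded genes took 11.01% of the fragments in VO 3 and 22.18% to 26.34% in the other 8 libraries, and erythroid markers (Hbb-bs and 5 others) summed to 2039 FPKM in VO 3 and to 591.9 to 1039 FPKM elsewhere. Myl7, which marks atrial muscle, reached 68.3 FPKM in CsA 3, and 235 and 269.7 FPKM in Sham 1 and Sham 3, but only 0.959 to 13.2 FPKM in the other 6 libraries. Y-linked Ddx3y was read only in Sham 2, at 18.6 FPKM. Ventricular cardiomyocyte markers, 10 of 10 found, summed to between 11820 and 18720 FPKM in every library. Atrial markers, 7 of 7 found, summed to 10.56 to 152.1 FPKM in CsA, 12.4 to 20.72 FPKM in VO and 10.65 to 599.1 FPKM in Sham. In bulk tissue, fewer cells of a type and less RNA per cell cannot be told apart.

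The promoters of Fos, Zfp36 and Csrnp1 are shown because stimuli reach these genes through short motifs close to the start, and because the results turn on the last 2 of them. RefSeq promoter windows (GRCm38.p6) were given for 8 of the 10 members, and the 250 bases before the start were searched on both strands for the CRE core TGACGT, the AP-1 site TGANTCA, the EGR site GCGNGGGCG, the TATA box TATAAA and the CArG box bound by serum response factor. Over 32851 windows of the same length these letters were found in 6.47%, 6.75%, 4.7%, 12.4% and 1.47%. Fos (chr12:85473640-85473889, plus strand) holds a CRE core 66 bases and a TATA box 33 bases before its start. Zfp36 (chr7:28379229-28379478, minus strand) holds a CArG box 58 bases and an EGR site 105 bases before its start. For Csrnp1, RefSeq gives 4 starts, and the window printed (chr9:119983024-119983273, minus strand) is the only one of them with a match, an AP-1 site 102 and again 14 bases before the start. The RefSeq starts of these Zfp36 and Csrnp1 windows lie 1025 and 1635 bases from the start of the gene in the deposited table. Capitals mark the matches.
Fos promoter: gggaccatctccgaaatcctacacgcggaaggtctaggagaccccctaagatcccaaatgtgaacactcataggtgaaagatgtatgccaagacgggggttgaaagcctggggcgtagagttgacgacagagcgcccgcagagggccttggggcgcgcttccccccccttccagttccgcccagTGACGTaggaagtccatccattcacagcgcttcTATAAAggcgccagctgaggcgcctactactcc
Zfp36 promoter: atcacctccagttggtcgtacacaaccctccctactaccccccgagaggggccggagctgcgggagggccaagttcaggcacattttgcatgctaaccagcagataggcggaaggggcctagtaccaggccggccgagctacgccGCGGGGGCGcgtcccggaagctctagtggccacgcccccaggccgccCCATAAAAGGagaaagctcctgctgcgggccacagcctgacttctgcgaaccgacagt
Csrnp1 promoter: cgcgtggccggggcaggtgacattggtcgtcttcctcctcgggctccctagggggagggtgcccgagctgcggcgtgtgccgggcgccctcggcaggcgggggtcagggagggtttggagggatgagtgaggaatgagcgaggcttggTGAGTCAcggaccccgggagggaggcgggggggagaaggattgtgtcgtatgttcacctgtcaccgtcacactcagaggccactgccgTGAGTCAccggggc
Among the other members, the Atf3 window holds a CRE core and the Fosb window an EGR site, and those of Jun, Junb and Jund hold none of the 5. The Atf3 and Jund windows lie 34706 and 1210 bases from the start of the gene in the deposited table. A match describes letters and not a bound site. A missing match covers only these 250 bases and the letters searched, so sites further upstream or with other letters were not looked for.

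Most members also carry the AU-rich element that the Zfp36 protein binds. In GENCODE M21 transcripts, TATTTAT was found in the 3′ UTR of 7 of the 10 members, against 28.7% of 11409 tested genes with a 3′ UTR of at least 50 bases. Zfp36 itself holds 3 copies and Fos 2, whereas Junb, Egr1 and Ier2 hold none. A copy is shown from Zfp36 and Csrnp1, the called genes, and from Fos, the best known carrier of the element, from the transcript's strand in GRCm38, with the element in capitals.
Fos (chr12:85477103-85477131): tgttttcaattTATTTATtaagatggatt
Zfp36 (chr7:28376951-28376979): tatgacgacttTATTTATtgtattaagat
Csrnp1 (chr9:119972067-119972095): cactctgaattTATTTATttttttatgtt
Jun, Junb, Jund and Ier2 have a single exon in these transcripts, and Csrnp1, with 5, has the most.

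The comparison of VO with Sham asks how these transcripts stand after the fistula. Zfp36 and Csrnp1 fell in VO. Jund and Junb had log2 fold changes of -1.06 and -1.05 and Egr1 of 0.96, without passing the test, and for Fos, Atf3 and Ier2 the difference lay within the spread of their libraries. In limma, 2 of the 9 tested members passed an adjusted p of 0.05, both lower in VO; 2.72% of all tested genes were called lower and 4.76% in either direction. At an unadjusted p under 0.05 there were 5 members (Junb, Jund, Egr1, Zfp36 and Csrnp1), against 29.3% of all tested genes. The median log2 fold change was -0.37 over the tested members and 0.0028 over all tested genes. Libraries of VO lay wholly below those of Sham for 5 of the 9 members (Jun, Junb, Jund, Zfp36 and Csrnp1), as for 17% of all tested genes, and wholly above for none, as for 16.2% of all tested genes.

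Csrnp1 (ENSMUSG00000032515, chromosome 9, 119971163 to 119984658, minus strand), the axin-induced nuclear protein, was at 0.958, 1.07 and 0.952 FPKM in VO 1 to 3, against 3.16, 2.73 and 3.91 FPKM in Sham 1 to 3. The groups did not overlap, and the VO libraries lay within 1.13-fold of each other. The mean was 0.994 ± 0.0674 FPKM in VO hearts, against 3.27 ± 0.596 FPKM in Sham hearts (SD, n = 3), a ratio of 0.304. The fitted log2 fold change was -1.09 ± 0.135 (SE; limma adjusted p = 0.0347) on the log2(FPKM + 1) scale, which understates the change of a gene this low. The fragments behind it were few: 53, 48 and 57 in VO and 160, 132 and 176 in Sham. At such counts the closeness of the VO libraries is within counting error.

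Zfp36 (ENSMUSG00000044786, chromosome 7, 28376784 to 28380253, minus strand) was at 1.75, 3.33 and 2.54 FPKM in VO 1 to 3, against 8.97, 6.24 and 8.16 FPKM in Sham 1 to 3. Every VO library was below every Sham library. The mean was 2.54 ± 0.788 FPKM in VO hearts, against 7.79 ± 1.4 FPKM in Sham hearts (SD, n = 3), and its log2 fold change was -1.32 ± 0.227 (limma adjusted p = 0.0382). Gm44710, annotated on the opposite strand with 125 exon bases in common with Zfp36, was at 0.123 to 0.329 FPKM in VO and at 1.53 to 3.78 FPKM in Sham. The sources used here do not say whether counting used strand, so reads of the pair may be shared, and Zfp36 is uncertain to that extent. Other members share exon bases with opposite-strand genes too: Csrnp1 224 with 1700019L13Rik, Jun 232 with Junos, and Jund 877 of 1668 with Gm11175. Over the 9 libraries these neighbours were at 0 to 0.0163 FPKM, 0.0141 to 0.2 FPKM and 0 FPKM. The levels of Csrnp1, Jun and Jund are uncertain in the same way.

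Both calls depended on the setting. They were lost after a correction of each library for GC content, where limma called 0 genes in all (Zfp36 at -1.13 ± 0.194, adjusted p = 0.0662; Csrnp1 at -0.78 ± 0.147, adjusted p = 0.0741), and when the 3 libraries rich in Myl7 were dropped (log2 of -1.06 ± 0.383 and -0.91 ± 0.241, adjusted p = 0.975 for both). They were also lost with no filter on low values, with only the groups compared, and without VO 1, CsA 1, CsA 3, Sham 1 or Sham 3, while only that of Zfp36 was lost without Sham 2. Without VO 3, the library low in mitochondrial reads, Csrnp1 was at -1.07 ± 0.137 and Zfp36 at -1.33 ± 0.259 (limma adjusted p = 0.0309 and 0.033). The sign of both was the same in the 21 alternatives run. Smooth muscle and pericyte markers, 8 of 8 found, summed to 561.4 to 726.8 FPKM in VO and to 737.8 to 1046 FPKM in Sham, and fibroblast markers, also 8 of 8, to 958.3 to 997.8 FPKM in VO and to 752.7 to 901.8 FPKM in Sham; their part in these results was not tested.

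**Figure D1:**
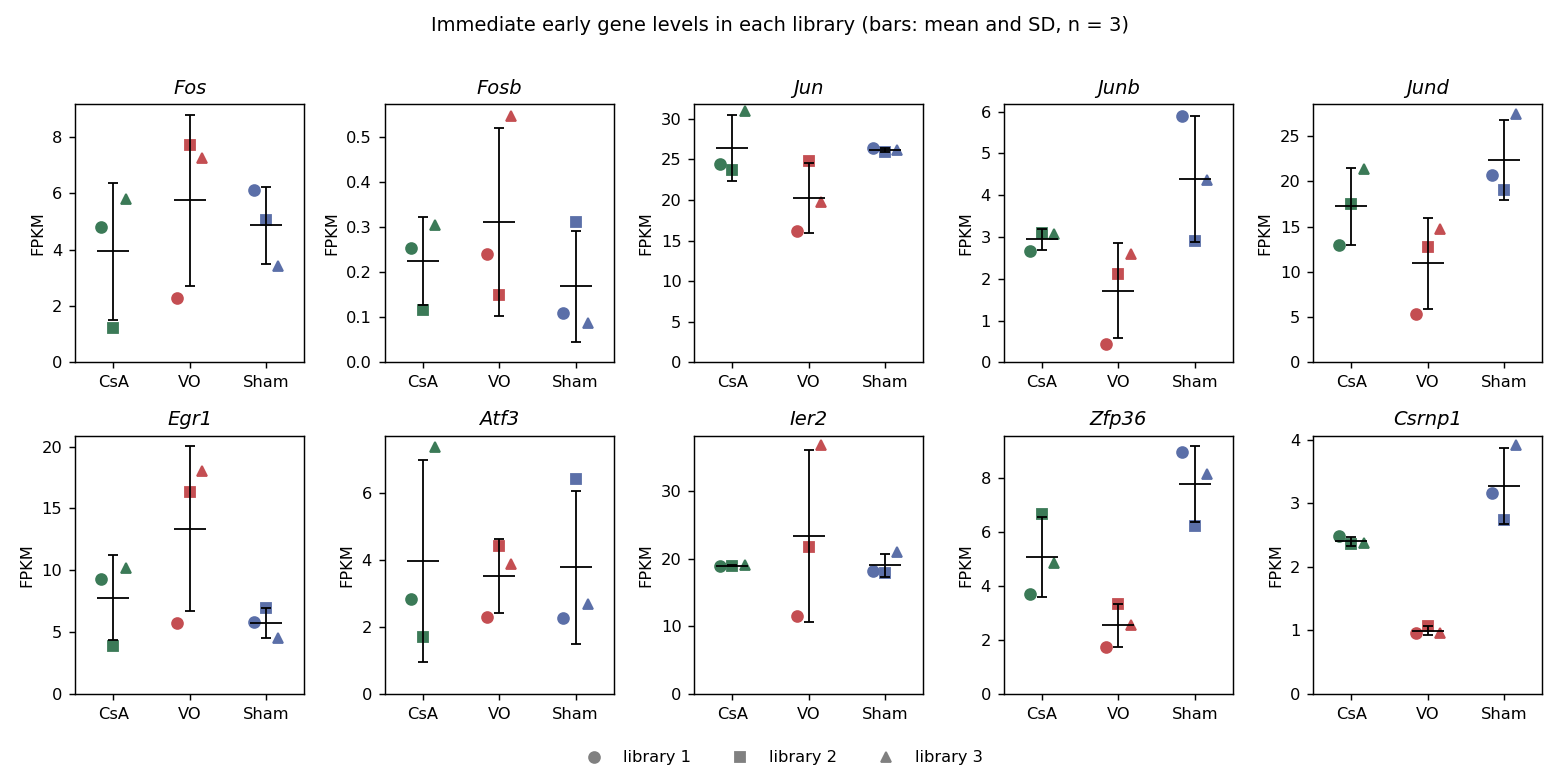
FPKM of each of the 10 genes in the CsA, VO and Sham libraries, with the mean and SD of each group (n = 3); marker shapes give the library number and each panel has its own axis from 0. Csrnp1 lies near 1 FPKM in all VO libraries and above 2.7 FPKM in all Sham libraries, while Fos, Atf3 and Ier2 overlap between groups.

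Jun family members had unequal log2 fold changes, and none passed the test. Jund (ENSMUSG00000071076, chromosome 8, 70698949 to 70700616, plus strand), often an antagonist of growth, was at 5.30, 12.7 and 14.8 FPKM in VO 1 to 3, against 20.7, 19.1 and 27.4 FPKM in Sham 1 to 3. Junb (ENSMUSG00000052837, chromosome 8, 84974484 to 84978718, minus strand), which can oppose Jun, was at 0.436, 2.12 and 2.60 FPKM in VO 1 to 3, against 5.90, 2.91 and 4.36 FPKM in Sham 1 to 3. For both, all VO libraries were below all Sham libraries, and VO 1 was far below the other VO libraries. The log2 fold changes were -1.06 ± 0.332 for Jund and -1.05 ± 0.327 for Junb (limma adjusted p = 0.0782 and 0.0769). Without VO 3 both passed, at -1.31 ± 0.333 for Jund and -1.31 ± 0.33 for Junb (limma adjusted p = 0.0413 and 0.0409), and without VO 1 both were at -0.65 (adjusted p = 0.129 and 0.125).

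Jund and Junb have the highest GC contents of the members, 67.1% and 62.6%, against a median of 49.4% over the tested genes. After the GC correction their log2 fold changes were -0.32 ± 0.212 and -0.50 ± 0.243 (limma adjusted p = 0.399 and 0.266). Junb shares 173 of its 2301 exon bases with Prdx2 on the opposite strand, which was at 79.9 to 194.5 FPKM over the VO libraries and 84.2 to 90.6 FPKM over those of Sham, so the level of Junb is uncertain. All 10 members lay above the median GC content of the tested genes.

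Jun itself (ENSMUSG00000052684, chromosome 4, 95049034 to 95052222, minus strand), the main activating partner of Fos, had the highest mean FPKM of the Fos and Jun genes here. It was at 16.3, 24.9 and 19.7 FPKM in VO 1 to 3, against 26.4, 25.9 and 26.2 FPKM in Sham 1 to 3. The groups did not overlap, but VO 2 came close to the lowest Sham library, and the log2 fold change of -0.37 ± 0.179 did not pass (limma adjusted p = 0.198; 95% interval -0.77 to 0.03). After the GC correction it was -0.12 ± 0.157.

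Egr1 and Ier2 stood apart from the genes that were lower in VO. Egr1 (ENSMUSG00000038418, chromosome 18, 34859823 to 34864984, plus strand) was at 5.70, 16.4 and 18.03 FPKM in VO 1 to 3, against 5.82, 6.93 and 4.51 FPKM in Sham 1 to 3. VO 2 and VO 3 were above all Sham libraries and VO 1 lay among them, and the log2 fold change of 0.96 ± 0.424 did not pass (limma adjusted p = 0.166). It was 0.69 ± 0.455 without VO 3 and 1.44 ± 0.338 without VO 1 (limma adjusted p = 0.288 and 0.0895). After the GC correction Egr1 was at 1.29 ± 0.395 (adjusted p = 0.131). Ier2 (ENSMUSG00000053560, chromosome 8, 84661331 to 84662852, minus strand) was at 11.5, 21.8 and 36.9 FPKM in VO 1 to 3, against 18.2, 17.9 and 20.99 FPKM in Sham 1 to 3. It spanned 3.20-fold within VO and 1.18-fold within Sham, with both ends of the VO range outside that of Sham. Its log2 fold change was 0.14 ± 0.323 (limma adjusted p = 0.804), and without VO 3 it turned to -0.24 ± 0.223 (adjusted p = 0.441). After the GC correction it was 0.62 ± 0.251 (adjusted p = 0.198).

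Fos, which forms AP-1 only together with a Jun partner, did not separate the groups. Fos (ENSMUSG00000021250, chromosome 12, 85473890 to 85477273, plus strand) was at 2.27, 7.71 and 7.25 FPKM in VO 1 to 3, against 6.12, 5.04 and 3.41 FPKM in Sham 1 to 3. The VO libraries lay on both sides of the Sham range. The log2 fold change was 0.10 ± 0.474 (limma adjusted p = 0.908; 95% interval -0.96 to 1.16). It turned to -0.15 ± 0.534 without VO 2, -0.11 ± 0.54 without VO 3 and -0.09 ± 0.54 without Sham 3.

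Atf3 (ENSMUSG00000026628, chromosome 1, 191170296 to 191218039, minus strand) was at 2.30, 4.43 and 3.88 FPKM in VO 1 to 3, against 2.26, 6.41 and 2.69 FPKM in Sham 1 to 3. The highest of these was in Sham 2, the library with Y-linked transcripts, and all VO values lay within the Sham range. Its log2 fold change was -0.01 ± 0.432 (limma adjusted p = 0.993) and changed sign under 7 of 21 alternatives, none of which passed. Without the libraries rich in Myl7, which leaves Sham 2 alone in its group, it was -0.74 ± 0.372 (adjusted p = 0.975). Fosb (ENSMUSG00000003545, chromosome 7, 19302696 to 19310051, minus strand), the close relative of Fos, was read by 24, 12 and 59 fragments in VO 1 to 3, against 10, 27 and 7 in Sham 1 to 3. The groups overlapped, and at a mean of 0.236 FPKM Fosb did not pass the filter. With no filter on low values its log2 fold change was 0.16 ± 0.126 (limma adjusted p = 0.557).

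**Figure D2:**
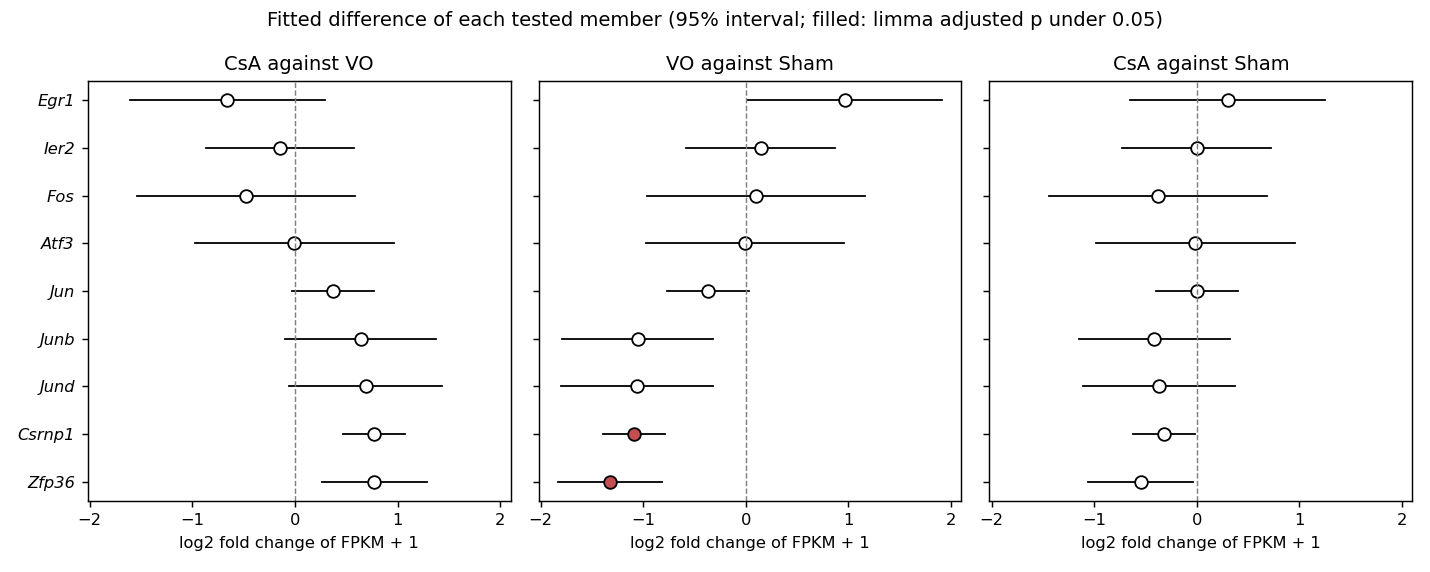
Fitted log2 fold change (points) with its 95% interval (lines) for the 9 tested members in CsA against VO, VO against Sham and CsA against Sham; filled points passed a limma adjusted p of 0.05. Zfp36 and Csrnp1 are the filled points, at -1.32 and -1.09 in VO against Sham.

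Library VO 1 was low for most of these genes. It was the lowest VO library for 8 of the 10 members, all but Fosb and Csrnp1, and the lowest of all 9 libraries for 5 of them (Jun, Junb, Jund, Ier2 and Zfp36). VO 1 was the lowest of its group for 35.5% of all tested genes. Spread within VO differed between members: Junb varied 5.95-fold over the VO libraries and Egr1 3.17-fold, but Csrnp1 only 1.13-fold. Junb was read by only 16 fragments in VO 1 and Csrnp1 by 48 to 57 in VO, and counting error at such counts limits this contrast. In CsA the lowest library was CsA 2 for 7 of the 10 members, among them Fos, Egr1 and Atf3, and CsA 3 was the highest for 7. CsA 2 was the lowest of its group for 37.7% of all tested genes and CsA 3 the highest for 30.4%.

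**Figure D3:**
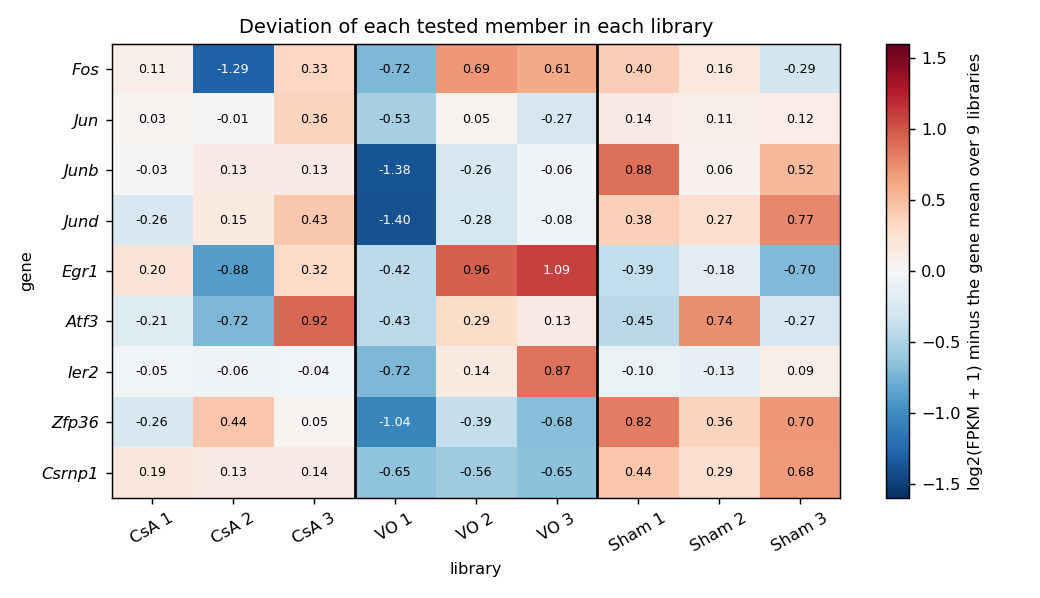
Heat map of log2(FPKM + 1) minus the gene's mean over the 9 libraries, for the 9 tested members (rows) and the CsA, VO and Sham libraries (columns); red is above and blue below the mean. The VO 1 column is blue in every row, and the Csrnp1 and Zfp36 rows are blue in all VO libraries and red in all Sham libraries.

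Within the Jun family, the make-up was read as each gene's share of the summed FPKM of Jun, Junb and Jund, a ratio within a library that does not depend on scaling. Jun made up 73.9%, 62.6% and 53.2% in VO 1 to 3, against 49.8%, 54.1% and 45.2% in Sham 1 to 3. The groups overlapped, since VO 3 lay below Sham 2. Jund made up 24.1%, 32.1% and 39.8% in VO 1 to 3, against 39.1%, 39.8% and 47.3% in Sham 1 to 3. The mean share of Jun was 63.2% ± 10.4 in VO and 49.7% ± 4.49 in Sham (SD, n = 3), a difference of 13.5 percentage points (exact two-sided permutation p = 0.2; 0.45 after Benjamini-Hochberg adjustment over 9 tests). With 3 against 3 libraries the smallest such p is 0.1, so no threshold of 0.05 could be reached. Without VO 1 the difference was 8.18 points, and after the GC correction, an alternative chosen after seeing the data like the first, 4.67 points. The summed level of the 3 genes was 22.0, 39.7 and 37.1 FPKM in VO 1 to 3, below the 47.9 to 57.9 FPKM of the Sham libraries.

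**Figure D4:**
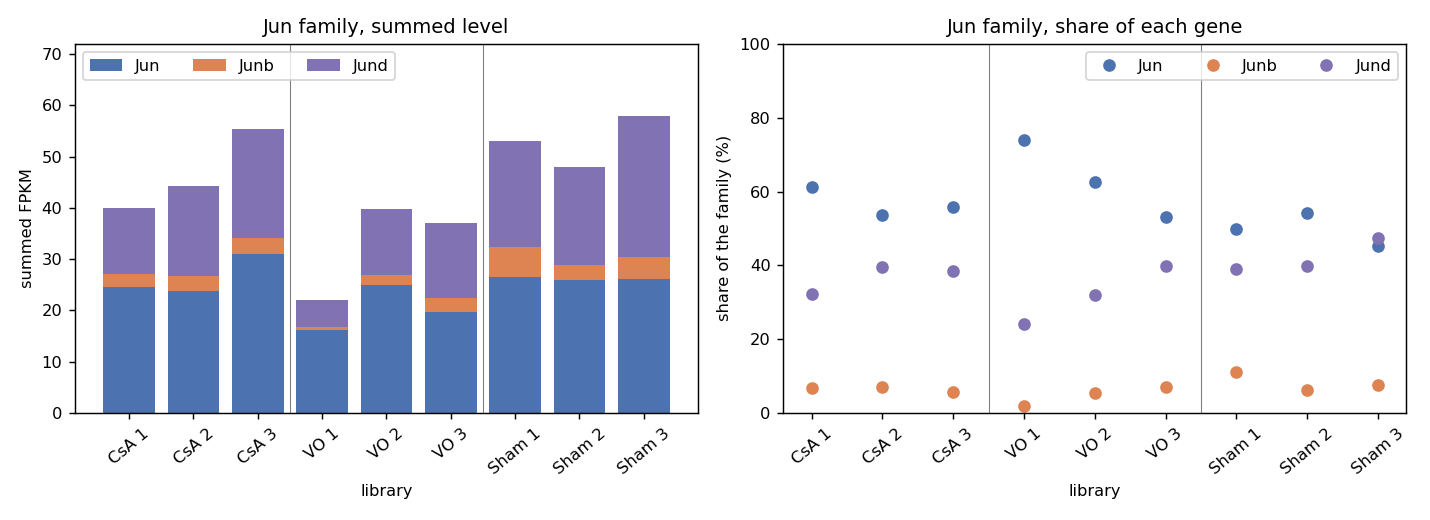
Left, summed FPKM of Jun, Junb and Jund in each library as stacked bars; right, each gene's percentage of that sum. VO 1 has the lowest sum, 22.0 FPKM, and the highest share of Jun, 73.9%.

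The comparison of CsA with VO asks how these transcripts stood with and without the drug after the same operation. On the log2(FPKM + 1) scale, Zfp36 and Csrnp1 had the largest log2 fold changes of the members. All CsA libraries were above all VO libraries for both, but neither passed the test. With a pseudocount of 0.1, Junb was at 1.04 ± 0.533, above Zfp36 at 0.98 ± 0.279. In limma 0 of the 9 tested members and 0% of all tested genes were called, also 0 with voom on recovered fragments, while at an unadjusted p under 0.05 there were 2 members, Zfp36 and Csrnp1, and 2219 genes, or 16.5%. The groups did not overlap for 3 of the 9 members, all higher in CsA, as for 10.9% of all tested genes. This comparison and that of VO with Sham share the VO libraries, so a low VO value gives opposite signs in them.

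Csrnp1 was at 2.49, 2.35 and 2.37 FPKM in CsA 1 to 3, against 0.958, 1.07 and 0.952 FPKM in VO 1 to 3. The means were 2.40 ± 0.0735 FPKM in CsA and 0.994 ± 0.0674 FPKM in VO (SD, n = 3). The fragments were few, 103, 101 and 108 in CsA 1 to 3 and 53, 48 and 57 in VO 1 to 3. Counting error alone at such counts is wider than these SDs, so the closeness within groups cannot be read as a trait of Csrnp1. The log2 fold change was 0.77 ± 0.135 (limma adjusted p = 0.204; 95% interval 0.47 to 1.07). Zfp36 was at 3.72, 6.66 and 4.85 FPKM in CsA 1 to 3, against 1.75, 3.33 and 2.54 FPKM in VO 1 to 3, and its log2 fold change was 0.78 ± 0.227 (limma adjusted p = 0.218). The lowest CsA library was above the highest VO library. Without VO 3 Csrnp1 was at 0.76 ± 0.137 and Zfp36 at 0.79 ± 0.259 (limma adjusted p = 0.125 and 0.156). The opposite-strand Gm44710 was at 0.178 to 2.58 FPKM in CsA, against 0.123 to 0.329 FPKM in VO, and the summed smooth muscle and pericyte markers at 730.6 to 820.5 FPKM in CsA, against 561.4 to 726.8 FPKM in VO, and their part was not tested.

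Junb was the other member without overlap. It was at 2.66, 3.09 and 3.08 FPKM in CsA 1 to 3, against 0.436, 2.12 and 2.60 FPKM in VO 1 to 3. The gap rested on a small margin above VO 3, and the log2 fold change was 0.64 ± 0.327 (limma adjusted p = 0.35). Jund was at 12.9, 17.4 and 21.4 FPKM in CsA 1 to 3, against 5.30, 12.7 and 14.8 FPKM in VO 1 to 3, and its log2 fold change was 0.69 ± 0.332 (limma adjusted p = 0.328). After the GC correction Junb was at 0.29 ± 0.243 and Jund at 0.19 ± 0.212.

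Jun was at 24.5, 23.7 and 31.0 FPKM in CsA 1 to 3, against 16.3, 24.9 and 19.7 FPKM in VO 1 to 3. VO 2 was above CsA 1 and CsA 2, and the log2 fold change of 0.37 ± 0.179 did not pass (limma adjusted p = 0.326). The share of Jun in its family was 56.9% ± 3.87 in CsA and 63.2% ± 10.4 in VO (exact permutation p = 0.5).

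Egr1 and Fos had the opposite sign. Egr1 was at 9.31, 3.86 and 10.2 FPKM in CsA 1 to 3, against 5.70, 16.4 and 18.03 FPKM in VO 1 to 3. Its groups overlapped through VO 1, the lowest of its group, and the log2 fold change was -0.66 ± 0.424 (limma adjusted p = 0.447). Fos was at 4.81, 1.203 and 5.80 FPKM in CsA 1 to 3, against 2.27, 7.71 and 7.25 FPKM in VO 1 to 3, and its log2 fold change was -0.48 ± 0.474 (limma adjusted p = 0.631), which turned to 0.03 ± 0.408 without CsA 2.

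Ier2 was nearly level over the CsA libraries, at 19.0, 18.9 and 19.0 FPKM, and ran from 11.5 to 36.9 FPKM in VO. It was read by 345, 355 and 380 fragments in CsA 1 to 3, and counting error alone is wider than the spread of these values. The CsA values fell inside the VO range, and its log2 fold change was -0.15 ± 0.323 (limma adjusted p = 0.853). Atf3 was at 2.84, 1.69 and 7.39 FPKM in CsA 1 to 3, against 2.30 to 4.43 FPKM in VO. CsA 3 was above the VO range and CsA 2 below it, and its log2 fold change was -0.004 ± 0.432 (limma adjusted p = 0.998). Fosb was read by 19, 9 and 25 fragments in CsA 1 to 3, against 24, 12 and 59 in VO 1 to 3.

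The comparison of CsA with Sham asks how far hearts with fistula and drug stood from those with the control operation. In limma 0 of the 9 tested members and 0% of all tested genes passed (0 with voom; 200 genes, or 1.48%, at an unadjusted p under 0.05, 2 of them members). Csrnp1 was the 1 member without overlap, at 2.35 to 2.49 FPKM in CsA against 2.73 to 3.91 FPKM in Sham, as for 4.94% of all tested genes that were wholly lower in CsA. Its log2 fold change was -0.32 ± 0.135 and that of Zfp36 -0.55 ± 0.227 (limma adjusted p = 1 for both). Jun and Ier2 had log2 fold changes of 0.003 ± 0.179 and -0.002 ± 0.323, with intervals of -0.40 to 0.40 and -0.73 to 0.72, which do not show that they were alike. Junb was at -0.41 ± 0.327, Jund at -0.37 ± 0.332, Fos at -0.38 ± 0.474 and Egr1 at 0.30 ± 0.424. Atf3 was at -0.01 ± 0.432, and at -1.21 ± 0.395 against Sham 2 alone, without the libraries rich in Myl7 (limma adjusted p = 1 for both). The mean of CsA lay between those of VO and Sham for 6 of the 10 members, near the 63.7% of all tested genes.

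**Figure D5:**
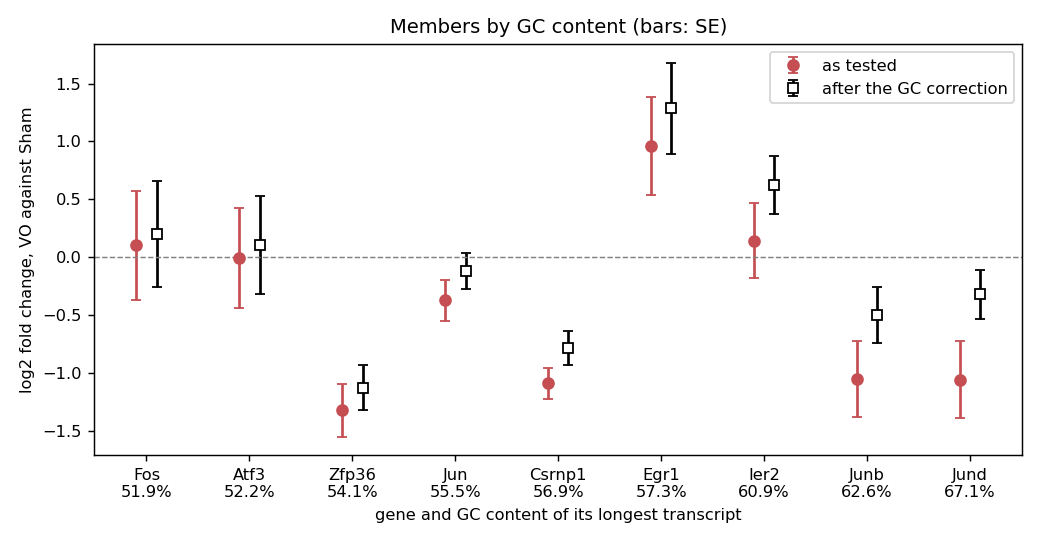
Log2 fold change in VO against Sham with its SE for the 9 tested members, in order of GC content, as tested (red circles) and after each library was corrected for its GC trend (open squares). Zfp36 is at -1.32 as tested and at -1.13 corrected, while Jund, at 67.1% GC, is at -1.06 and -0.32.

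Other genes of the pathway were read from lists chosen with earlier results of these data known, and those named are the called ones or have the smallest p of their list. None of the calls below was made after the GC correction, which left 0 called genes. Of 43 tested primary response genes outside the 10, 5 fell in VO against Sham and 0 rose, while 2.72% of all tested genes were called lower, and the list's median log2 was -0.18. They were Klf4, a zinc finger factor of vessel and stem cells; Per1, a clock gene; Nfkbia, the inhibitor of NF-kappa-B; Cebpb, a bZIP factor of inflammation; and Ier5l. Klf4 had a mean of 6.83 ± 1.18 FPKM in VO hearts, against 19.0 ± 1.64 FPKM in Sham hearts (SD, n = 3), a log2 difference of -1.36 ± 0.158 (limma adjusted p = 0.0347). Nfkbia had a mean of 10.3 ± 1.91 FPKM in VO hearts, against 26.0 ± 3.48 FPKM in Sham hearts (log2 -1.26 ± 0.199, limma adjusted p = 0.0382). In CsA against VO, 0 of the 43 were called, with Klf4 at a log2 of 1.09 ± 0.158 and Nfkbia at 0.97 ± 0.199 (limma adjusted p = 0.204 for both).

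Upstream, 0 of 18 tested regulators of the SRF and CREB group passed in VO against Sham (median log2 -0.33). Srf, which binds the CArG box, had a mean of 18.1 ± 8.56 FPKM in VO hearts, against 35.5 ± 3.25 FPKM in Sham hearts (log2 -1.02 ± 0.264, limma adjusted p = 0.0536). Of 21 MAP kinase genes 1 was called, a share near the 4.76% of all tested genes. It was Mapk3 (ERK1), which fell, with a mean of 12.8 ± 3.08 FPKM in VO hearts, against 30.2 ± 1.84 FPKM in Sham hearts (log2 -1.21 ± 0.213, limma adjusted p = 0.0382), and the list's median log2 was 0.004. The kinase Map2k1 was at 0.71 ± 0.189 (limma adjusted p = 0.0565). Among feedback inhibitors of this cascade, 0 of 16 passed, and the median log2 was -0.23, with 9 below 0. The smallest p were those of Spry2 at 0.57 ± 0.161 and Dusp4 at -0.55 ± 0.169 (limma adjusted p = 0.0628 and 0.0746), followed by Spred1 at 0.69 ± 0.224 and Dusp6 at 0.42 ± 0.139 (adjusted p = 0.0872 and 0.0887).

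Of 21 tested AP-1 and bZIP partners, Cebpb, already counted among the primary response genes, and Nfe2l1 fell in VO against Sham and 0 rose, against 2.72% of all tested genes called lower (median log2 -0.44). Nfe2l1, a regulator of proteasome genes, had a mean of 38.1 ± 0.798 FPKM in VO hearts, against 66.8 ± 7.38 FPKM in Sham hearts (log2 -0.79 ± 0.174, limma adjusted p = 0.0408). Of 7 corepressors and modifiers of EGR and AP-1, 0 passed (median log2 0.20). Among 18 genes associated with AP-1, EGR or ATF3 activity, Ddit4 and Chac1 fell and 0 rose, against 2.72% of all tested genes called lower, while the median log2 of the list was 0.26, with 11 above 0.

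Of 16 tested factors of AU-rich mRNA decay, Hnrnpd, Tial1 and Elavl1, which bind AU-rich elements, rose in VO against Sham, and Cnot3, a subunit of the deadenylase, fell. Of all tested genes 2.04% were called higher and 2.72% lower, and the list's median log2 was 0.25. Hnrnpd (AUF1) had a mean of 15.0 ± 2.83 FPKM in VO hearts, against 6.71 ± 1.57 FPKM in Sham hearts (SD, n = 3), a log2 difference of 1.06 ± 0.199 (limma adjusted p = 0.0382). Elavl1 (HuR), which stabilises such mRNAs, had a mean of 8.48 ± 0.389 FPKM in VO hearts, against 5.23 ± 0.63 FPKM in Sham hearts (log2 0.61 ± 0.149, limma adjusted p = 0.0495). The GC contents of Hnrnpd and Elavl1 were 41.7% and 45.7%, below the median of the tested genes. Among these pathway lists, the genes called lower all lay above that median, from 50.4% for Cnot3 to 67.2% for Cebpb. The part of GC content in these calls was not tested. In CsA against VO, and in CsA against Sham, 0 genes of any of these lists passed.

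Genes with the most similar pattern were sought by Pearson correlation, over the 9 libraries, with the mean standardised log2 level of the 9 tested members. That mean was -1.52 in VO 1 and between -0.37 and 0.57 elsewhere, so it is set largely by VO 1. Among the 8 protein-coding genes of at least 5 FPKM with the highest correlation were Myl9 (r = 0.98), Dapk3 (0.96), Tsen34 (0.95), Ube2m (0.95), Gltp (0.94), Dap (0.94) and Ppdpf (0.94). Without VO 1 the values of these genes were 0.61 to 0.94 over 8 libraries. The members themselves ranged from 0.25 for Egr1 to 0.89 for Jund, which is a description with no test, since the libraries share their groups and their GC trends.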

How the data were processed

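Libraries for bulk RNA sequencing were made, per the labels' protocols, from 1 µg of total RNA by NEBNext Ultra. The authors deposited FPKM per gene and library. The submitters' processing notes list GATK 3.7, DESeq2 1.20.0, featureCounts 1.5.0-p3, StringTie 1.3.3b and HISAT2 2.0.5, and the builds GRCm38 and mm10, without saying what each was used for.

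Values were taken as log2(FPKM + 1) and fitted in limma 3.58.1 (R 4.3.3) with a mean per group and a mean-variance trend, two-sided, with Benjamini-Hochberg adjustment over all 13477 genes tested. Fragments recovered from FPKM and gene length were whole within 0.1 for 100% of values above 0. Their precision covers counting error alone, as PCR duplicates could not be recognised. The divisor behind the deposited FPKM was not exactly the total of these fragments. It was 1.0373 to 1.0783 times that total in VO, 0.9558 to 1.0317 in CsA and 0.9766 to 1.0215 in Sham. A chi-square per degree of freedom between libraries of a group was 11.5 to 26.6, and 182.7 and 134 for VO 3 against the other VO libraries, so none were duplicates. GC content came from the longest GENCODE M21 transcript; its trend was removed per library by loess (span 0.3, degree 1). The transcripts' coordinates equal those deposited for 98.33% of genes found. Figures used matplotlib 3.10.9.

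The members and lists were chosen with earlier results of these data known. All members are named. From each other list, the called genes and up to 4 genes with the smallest p in each comparison could be named. A few genes within these rules are not reported here. The 21 alternatives changed the pseudocount, filter, scaling, GC, samples in the fit, replicate block or test, or left out libraries. The limma calls of VO against Sham were tested on simulated data. Of the 100 genes changed by each amount, 73% at a log2 of 1 and 100% at a log2 of 2 were recovered. The changed genes were not drawn from the tested genes with the fewest fragments, so recovery among those was not tested. False calls numbered 11. The simulation gave all genes the same added spread, with no GC trend and no outlying library, so it does not bear on those.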

Additional observations from a re-analysis of the deposited data

How the results depend on the processing

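In VO against Sham the count of called genes, 642, went to 0 with no filter on low values, after the GC correction, with only the groups compared and with the GC correction and replicate block together, to 1011 with voom, to 3 without the libraries high in Myl7, and from 0 to 2032 over the libraries left out. The count of 2 called members went to 0 in the first 4 of these settings and without the libraries high in Myl7, and ranged from 0 to 4 over the libraries left out. With the replicate number as a block, 1 gene and 0 members were called. Same-numbered libraries correlated at -0.4 to 0.237 in their deviations from the group mean. With 3 libraries a group, these values cannot settle whether the numbers pair the samples. CsA against VO had 0 to 1 called genes over the libraries left out, and CsA against Sham 0 to 3, with 3 without the libraries high in Myl7; no member was called in either comparison in any setting. Where 1 library of Sham was left, its spread was assumed to be that of the other groups.

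Some members changed sign. Over the libraries left out, log2 fold changes in VO against Sham spanned -0.147 to 0.561 for Fos, -0.236 to 0.356 for Atf3 and -0.245 to 0.554 for Ier2. In CsA against VO they spanned -0.936 to 0.027 for Fos, -0.466 to 0.355 for Atf3 and -0.556 to 0.243 for Ier2. In CsA against Sham they spanned -0.684 to 0.129 for Fos, -0.114 to 0.073 for Jun, -0.475 to 0.352 for Atf3 and -0.043 to 0.067 for Ier2. In VO against Sham, Atf3 turned to 0.005 with a pseudocount of 0.1, 0.021 with quantile scaling, 0.104 after the GC correction with or without the block and 0.078 with voom, and in CsA against VO to 0.081 when rescaled without mitochondrial genes. In CsA against Sham, Atf3 turned to 0.007 when rescaled without mitochondrial genes and to 0.031 after the GC correction with or without the block. Ier2 turned there to 0.004 with quantile scaling, 0.031 when rescaled without mitochondrial genes, 0.18 after the GC correction with or without the block and 0.08 without the libraries high in Myl7. Jun turned there to -0.007 with voom and -0.102 without the libraries high in Myl7, and Egr1 to -0.164 without them. In CsA against VO the GC correction turned the difference in the share of Jun to 0.189 points and that of Jund to -0.893 points. The causes were not tested.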
